A study of Homo sapiens with 6 samples.

Results

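The zinc finger genes of chromosome 19 were followed in HCCLM3 cells, a human hepatocellular carcinoma line of high metastatic potential, after knockdown of ATXN7L3. Members were defined by name and position alone. Their symbols are made of ZNF, a number and at most 1 further letter, and their exons all lie on chromosome 19. This rule was set with earlier results of these data known. The rule found 220 of the 34234 genes in the deposited counts, and 172 of them had enough reads to be tested. Both groups were HCCLM3 cells grown in DMEM with serum and given a lentivirus, carrying a control hairpin in shcontrol (3 libraries) and a hairpin against ATXN7L3 in shATXN7L3 (3 libraries). The labels say neither how many hairpins were used nor whether replicates were separate cultures, so p-values measure the spread between these libraries only. Of the members, 209 are protein-coding in GENCODE 29, 8 are pseudogenes of 3 classes and 3 had no entry under the same symbol. ZNF331 and ZNF808, listed among members of known role, were not analysed here.

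Most ZNF genes of chromosome 19 encode KRAB zinc finger proteins. An array of C2H2 zinc fingers reads the DNA sequence, often that of a transposable element, and the KRAB domain recruits the corepressor TRIM28, which brings the histone methyltransferase SETDB1 and HP1 proteins to form heterochromatin. The genes arose by tandem duplication and lie in clusters, so neighbours are often close paralogs. ATXN7L3 is an adaptor of the deubiquitinase module of the coactivator SAGA, which takes ubiquitin off histone H2B.

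The libraries held 22376867 to 23915783 counts. ATXN7L3 itself stood at 36.4, 37.5 and 37.5 CPM (TMM-scaled counts per 1000000) in shcontrol and at 20.6, 20.5 and 19.5 CPM after knockdown. Its fitted difference was -0.88 ± 0.056 on the log2 scale (SE; edgeR adjusted p = 6.69e-10), and the call held in all 14 other analyses. The exact permutation test of this gene gave a two-sided p of 0.1, the smallest that 3 against 3 libraries allow. Of 10 hepatocyte and hepatoma markers, 9 were tested and 8 fell, and their summed level was 1920 to 2080 CPM in shcontrol and 1690 to 1840 CPM in shATXN7L3. Leukocyte markers summed to 1.15 to 1.85 and 0.664 to 1.05 CPM, endothelial markers to 57.2 to 62.1 and 42.4 to 44.4 CPM, and fibroblast and stellate markers to 23.5 to 27.8 and 5.14 to 6.03 CPM. The fibroblast and stellate sum was almost wholly LUM (means 25.6 and 5.22 CPM). The endothelial sum was almost wholly PECAM1 (43.7 and 28.0 CPM) and KDR, which hardly moved (15.5 and 15.3 CPM). The other markers of both lists were near the floor of detection and not tested. The part of these differences in the results below was not tested.

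A smaller share of the ZNF genes of chromosome 19 passed the test than of all tested genes. By edgeR's quasi-likelihood test (Benjamini-Hochberg adjusted p under 0.05 over all 17935 tested genes), 12 of the 172 tested members rose, 5 fell and 155 did not pass, which is 9.88% called. Over all tested genes, 24.2% were called, 12.2% higher and 12.0% lower. Of the 172 tested members, 6 were called with a change of at least 1.5-fold. Over all tested genes, this held for 949 of 17935 (5.29%). ZNF genes on the other chromosomes were called in 38 of 220 cases (17.3%, 17 higher and 21 lower) and other chromosome 19 genes in 241 of 1087 (22.2%). The groups did not overlap in 44 members (25.6%, 25 higher and 19 lower in shATXN7L3), against 38.3% of all tested genes (19.8% higher, 18.4% lower). With scaling by library size alone, which moves the median of all genes from 0.01 to 0.05, the members' split became 14 higher and 3 lower and that of all genes 2955 and 1604 instead of 2182 and 2150. Without shATXN7L3 replicate 1 the calls among members became 6 higher and 3 lower. Without shcontrol replicate 2 they were 7 and 2, without shATXN7L3 replicate 2 they were 8 and 1, and without shATXN7L3 replicate 3 they were 9 and 2. DESeq2 called 4 higher and 1 lower. The members' share of calls stayed below that of all genes in each of the 14 other analyses, from 2.91% against 15.6% with DESeq2 to 19 of 172 members against 23.9% of all genes without shcontrol replicate 3. These shares are a description, and no test of the list was made.

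The members were less abundant than the average tested gene. Per length, the median tested member stood at 1.03 RPKM (CPM per kilobase of exon) in shcontrol, against 1.94 RPKM for ZNF genes elsewhere and 3.19 RPKM for all tested genes. Their median SE of the log2 fold change was 0.12, against 0.09 for all tested genes. Shares were therefore set side by side within bands of average log2 CPM. Between 2 and 4, 6 of 74 members were called (8.11%) against 21.8% of all genes, and between 4 and 6, 4 of 26 (15.4%) against 31.0%. Between 0 and 2 the shares were 7.27% (4 of 55) and 14.6%. In the lowest band, under 0, the order was the other way, with 3 of 16 members (18.8%) against 9.48%. Of these 3 calls, ZNF221 and ZNF528 reached the read cutoff of the filter mainly through the group where they are high, and ZNF493 lay at the threshold, so nothing is read from this band. ZNF genes elsewhere lay at 12.5% (1 of 8) under 0, at 6.82% (3 of 44) between 0 and 2, just below the members, at 17.0% (15 of 88) between 2 and 4 and at 22.1% (15 of 68) between 4 and 6.

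**Figure D1:**
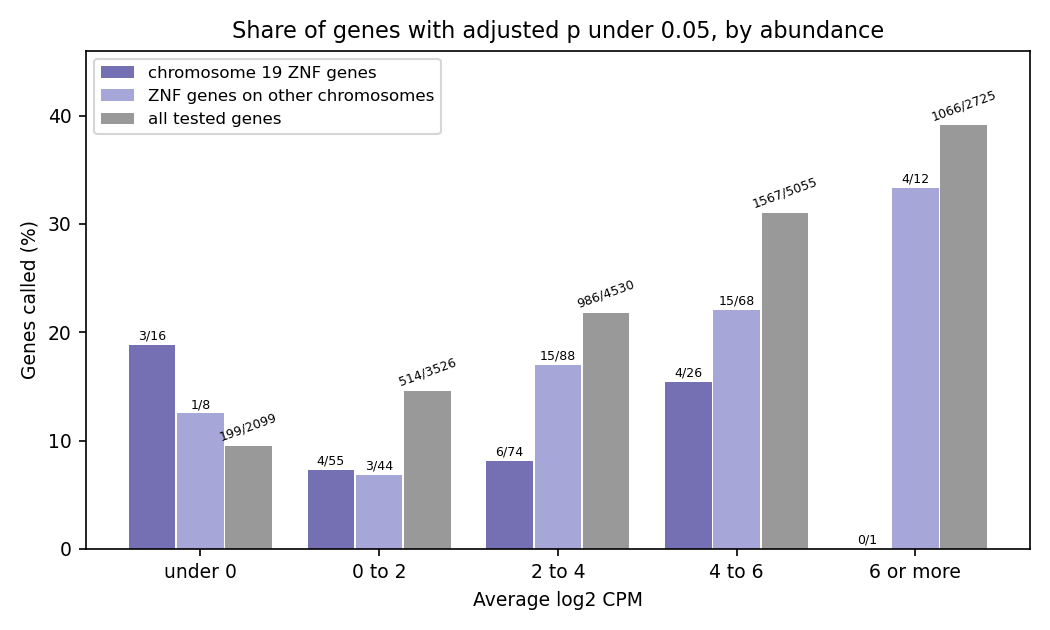
Share of genes with an edgeR adjusted p under 0.05 (percent, vertical axis) in 5 bands of average log2 CPM (horizontal axis), for ZNF genes of chromosome 19, ZNF genes on other chromosomes and all tested genes; the numbers above the bars are genes called over genes tested. In the 3 bands from 0 to 6 the chromosome 19 genes were called less often than all genes (7.27%, 8.11% and 15.4% against 14.6%, 21.8% and 31.0%).

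In size, the measured differences of the members were like those of other genes. Absolute fold changes also hold noise, and the members' median SE was larger (0.121 against 0.086). Like medians therefore do not show that the underlying changes were alike. The median log2 fold change was 0.02 over tested members and 0.01 over all tested genes, and the median of its absolute value was 0.15 and 0.14. In bands of average log2 CPM, the absolute median was lower in members between 0 and 2 (0.194 against 0.218) and between 2 and 4 (0.127 against 0.139). It was higher in members between 4 and 6 (0.113 against 0.106) and under 0 (0.406 against 0.309). Of the members, 90 lay above 0 and 82 below (52.3% above, against 51.1% of all tested genes). For 130 of the 172 (75.6%), the interval of ± 2 SE stayed within a 1.5-fold change in either direction, which held for 72.9% of all tested genes. Summed over all 220 members, the level was 1590, 1640 and 1680 CPM in the shcontrol libraries and 1660, 1620 and 1630 CPM in the shATXN7L3 libraries. The ranges of these sums overlapped, and both group means were 1640 CPM (SD 43.3 and 21.7, n = 3 each). Among the 48 members not tested, none had more than 48 counts over the 6 libraries.

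Exon overlap limits single values. How reads in shared exon bases, or reads matching several paralogs, were assigned is not given in the labels used here, and 119 of the 220 members share exon bases with another gene, 72 of them on the same strand. Of the 68 tested members with no such overlap, 5 rose and 3 fell (11.8% called, median -0.01). Of the 104 with an overlap, 7 rose and 2 fell (8.65%, median 0.06). Those that rose were ZNF700, ZNF44, ZNF493, ZNF576, ZNF525, ZNF761 and ZNF587, and those that fell were ZNF586 and ZNF606. Values of near-identical paralogs are therefore uncertain.

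The most abundant members per length included genes outside the KRAB type. ZNF146, which consists almost wholly of zinc fingers and has no KRAB domain, was first with 37.5 ± 1.05 RPKM in shcontrol (mean ± SD, n = 3). Its level was 156, 160 and 151 CPM in shcontrol and 165, 166 and 156 CPM in shATXN7L3, the groups overlapped, and the log2 fold change was 0.06 ± 0.044 (edgeR adjusted p = 0.376). ZNF888 (12.5 RPKM, over a gene model of 551 bases), ZNF580 (11.7 RPKM), ZNF121 (8.91 RPKM), ZNF587B (7.16 RPKM) and ZNF587 (6.72 RPKM) came next. Few members stood high, as 89 members reached 1 RPKM and 8 of them 5 RPKM. ZNF580 stood at 31.4, 31.6 and 31.8 CPM in shcontrol and 28.9, 28.2 and 30.5 CPM in shATXN7L3. Its groups did not overlap, but the change did not pass the test (-0.11 ± 0.055, edgeR adjusted p = 0.151), and it shares exon bases with its neighbours ZNF581 and CCDC106.

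Along the chromosome, the members formed 9 sub-clusters of at least 5 genes, separated by gaps of more than 1 Mb between starts or by the centromere, and 14 scattered genes. The sub-clusters are named here by their first and last member. The median log2 fold change was above 0 in 4 of them, ZNF653 to ZNF791, ZNF101 to ZNF43, ZNF723P to ZNF254 and ZNF175 to ZNF813, under each of 14 other analyses. In ZNF565 to ZNF573 it was below 0 in each of them, as in ZNF575 to ZNF296. The signs of the other 3 were not stable. With scaling by library size alone, ZNF557 to ZNF846 went from -0.01 to 0.03 and ZNF628 to ZNF446 from -0.03 to 0.01. The median of ZNF807 to ZNF792, -0.04, ran from -0.13 to 0.09 over the 14 other analyses. It stayed below 0 when any 1 library was left out (-0.13 to -0.01). The medians also depend on where sub-clusters are split. With a gap of 2 Mb, ZNF557 to ZNF846 joins ZNF653 to ZNF791 (median 0.12, ratio of summed CPM 0.957), and ZNF575 to ZNF296 joins the genes before it from ZNF546 on, with a median of 0.01, above 0. The 4 sub-clusters with a median above 0 in every analysis also had the lowest median log2 CPM (1.326, 1.479, 1.798 and 2.485, against 2.57 to 3.673). In members, the median log2 fold change was 0.197 under an average log2 CPM of 0 and 0.114 from 0 to 2. It was -0.04 from 2 to 4 and -0.027 from 4 to 6. In all tested genes these medians were -0.046, 0.014, 0.035 and 0.012. Differences between sub-clusters were not tested, and position and abundance cannot be told apart in them. Members of one sub-cluster share ancestry and in part reads.

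**Figure D2:**
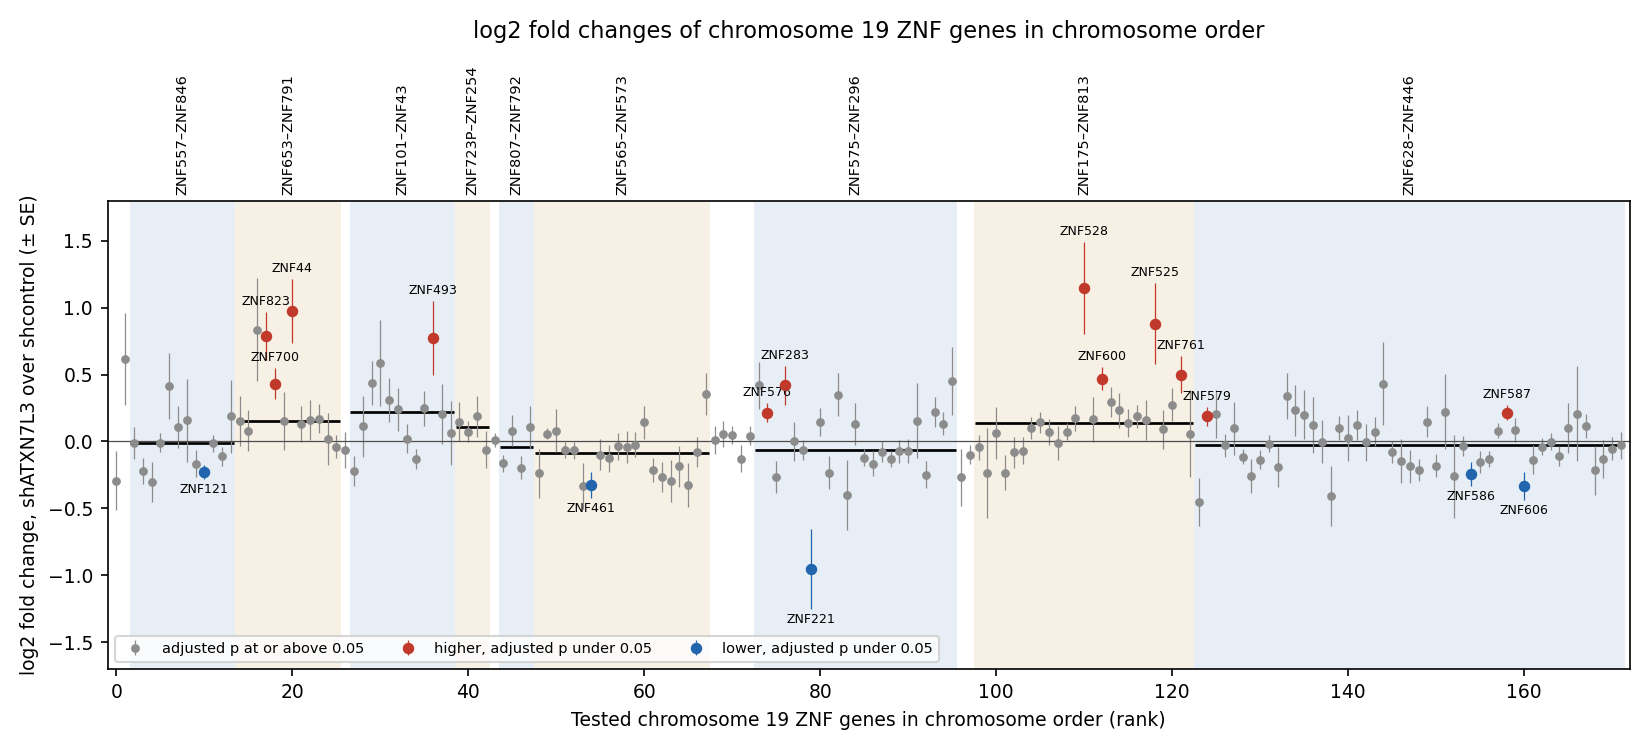
log2 fold change of shATXN7L3 over shcontrol (vertical axis, bars ± SE) for the 172 tested ZNF genes of chromosome 19 in chromosome order (horizontal axis, rank); shaded bands are the 9 sub-clusters, black lines their medians, and red and blue points the 12 genes that rose and the 5 that fell. The points of ZNF653 to ZNF791 and ZNF175 to ZNF813 lie mostly above 0 and those of ZNF565 to ZNF573 mostly below.

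The sub-cluster ZNF653 to ZNF791 (GRCh38, chromosome 19, 11483427 to 12640098) held 3 of the genes that rose. Of its 20 members 12 were tested, so that 25% were called, near the 24.2% of all tested genes. Of the 12 tested, 11 lay above 0, against 51.1% of all tested genes, and the median was 0.16 (0.15 to 0.23 over the 14 other analyses). Its summed level was 38.2, 39.7 and 40.5 CPM in shcontrol and 44.6, 44.8 and 44.5 CPM in shATXN7L3. The sums did not overlap, and their ratio was 1.13. Without the 3 genes that rose, the sums were 32.0, 32.5 and 34.7 against 35.7, 34.5 and 34.4 CPM, the ranges overlapped and the ratio was 1.05. In the 6 members with no exon overlap, the sums were 15.6, 15.8 and 17.8 CPM against 18.2, 16.9 and 17.4 CPM and overlapped too.

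ZNF823 (11721265 to 11739009, minus strand) encodes a KRAB zinc finger protein. It stood at 1.47, 1.89 and 1.41 CPM in shcontrol and at 2.45, 3.03 and 2.72 CPM after knockdown (0.79 ± 0.18 on the log2 scale, edgeR adjusted p = 0.00267). ZNF44 (12224686 to 12294887, minus strand) rose by 0.98 ± 0.24, from 0.711, 1.10 and 0.835 CPM to 1.33, 1.95 and 1.92 CPM (edgeR adjusted p = 0.00491). All knockdown libraries lay above all control libraries for both genes, and both kept their call in all 14 other analyses. The counts behind ZNF44 were low, 16 to 24 reads per shcontrol library and 31 to 47 per shATXN7L3 library, and it shares 250 exon bases with a gene on the other strand. ZNF700, between them (11925068 to 11950773, plus strand), went from 3.96, 4.14 and 3.60 CPM to 5.03, 5.31 and 5.44 CPM (0.43 ± 0.12, edgeR adjusted p = 0.0111). It shares 577 exon bases with another gene on the same strand. Its call ended with DESeq2 alone (adjusted p = 0.0911, the highest of 14 that began at 0.00558).

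The sub-cluster ZNF175 to ZNF813 (51571298 to 53496255) held 4 genes that rose and none that fell among 25 tested of 36, or 16.0% called against 24.2% of all tested genes. The median was 0.14 (0.09 to 0.18 over the other analyses) and 19 of the 25 lay above 0, against 51.1% of all tested genes. Its summed level was 176, 202 and 199 CPM in shcontrol and 217, 207 and 211 CPM in shATXN7L3. These did not overlap, although shcontrol replicate 1 lay well below the other control libraries. That library was also low for the chromatin remodeller gene ATRX (158 CPM, against a group mean of 216 CPM); the part of this in the sums was not tested. Without the 4 genes that rose, the sums were 163, 190 and 185 against 199, 189 and 192 CPM and overlapped. In the 19 members with no exon overlap, they were 61.9, 67.8 and 64.7 against 69.2, 68.1 and 67.4 CPM, which also overlapped.

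ZNF600 (52764195 to 52786791, minus strand) had the smallest adjusted p of all members. It stood at 7.87, 7.50 and 8.44 CPM in shcontrol and 10.5, 11 and 11.5 CPM in shATXN7L3 (0.47 ± 0.087, edgeR adjusted p = 4.52e-04), a 1.39-fold rise with a gap between the groups and no exon overlap with another gene. The call held in all 14 other analyses, at adjusted p from 1.57e-05 to 0.00517. ZNF761, nearer the telomere (53431993 to 53458261, plus strand), went from 3.96, 2.95 and 4.44 CPM to 5.85, 5.02 and 5.23 CPM (0.50 ± 0.14, edgeR adjusted p = 0.0122). Its call ended without shATXN7L3 replicate 1 (0.0652) or shcontrol replicate 2 (0.0816) and with DESeq2 (0.0548), against a lowest value of 0.0014 among the alternatives.

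The other genes that rose there were close to the floor of detection. ZNF528 had 8, 11 and 5 reads in shcontrol and 21, 22 and 14 in shATXN7L3, and ZNF525 had 12, 31 and 15 against 39, 27 and 48. Their log2 fold changes were 1.15 ± 0.34 and 0.88 ± 0.30 (edgeR adjusted p = 0.0196 and 0.0398), and the groups of ZNF525 overlapped. ZNF528 reached the read cutoff of the filter in 1 shcontrol library only, so its inclusion leaned on the shATXN7L3 group. It lost its call without shATXN7L3 replicate 1 (0.0764) or 2 (0.0873) or shcontrol replicate 3 (0.0878) and with DESeq2 (0.134), with alternatives from 0.0108. ZNF525 lost its call without shATXN7L3 replicate 1 (0.103) or 3 (0.197) or shcontrol replicate 1 (0.130) or 3 (0.105) and with DESeq2 (0.124), with alternatives from 0.00272.

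Members of this sub-cluster with known roles did not pass. ZNF175 stood at 8.68 ± 0.48 and 8.41 ± 0.668 CPM (-0.04 ± 0.093, edgeR adjusted p = 0.777). ZNF350, a partner of BRCA1 that represses GADD45A, stood at 4.37 ± 0.119 and 3.71 ± 0.477 CPM (-0.23 ± 0.13, edgeR adjusted p = 0.216). ZNF611, which binds SVA retrotransposons, had 0.16 ± 0.17, and ZNF649, a repressor of serum response element reporters, -0.23 ± 0.34 from 0.612 CPM. For ZNF611 and ZNF649 the intervals at ± 2 SE ran from -0.17 to 0.50 and from -0.91 to 0.44. Changes of either sign inside those intervals remain compatible with the values.

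In the sub-cluster ZNF101 to ZNF43 (19668796 to 21852125), 10 of 12 tested genes lay above 0, against 51.1% of all tested genes. The median was 0.22 (0.11 to 0.27 over the other analyses), but 1 gene passed (8.33%, against 24.2% of all tested genes). ZNF493 went from 0.800, 0.552 and 0.439 CPM to 1.16, 0.954 and 0.962 CPM (0.77 ± 0.28, edgeR adjusted p = 0.0494). It lay at the threshold and lost its call in 9 of the 13 alternatives that tested it, among them those without shATXN7L3 replicate 1 (0.165), 2 (0.0874) or 3 (0.0891) and without shcontrol replicate 2 (0.136) or 3 (0.179); values ran from 0.0214 to 0.256. ZNF93, a repressor of L1 retrotransposons, had 0.59 ± 0.32 from 0.417 CPM, with separated groups but an edgeR adjusted p of 0.205. The summed level was 46.4, 48.5 and 53.9 CPM in shcontrol and 53.8, 49.6 and 49.1 CPM in shATXN7L3, which overlapped. ZNF91, a repressor of SVA retrotransposons in the neighbouring ZNF723P to ZNF254 group, stood at 13.3, 12.9 and 14.2 CPM and at 14.3, 15.3 and 12.9 CPM. Its log2 fold change was 0.07 ± 0.079 (edgeR adjusted p = 0.561), with an interval from -0.08 to 0.23. No member of that group passed among 4 tested.

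The sub-cluster ZNF565 to ZNF573 (36182060 to 37817300) leaned the other way, with 16 of 20 tested genes below 0 (8769 of 17935 over all tested genes). The median was -0.09 (-0.11 to -0.05 over the other analyses). A single gene passed (5.0% called, against 24.2% of all tested genes). This was ZNF461 (36637192 to 36666853, minus strand). It fell from 6.93, 7.36 and 7.03 CPM to 5.42, 5.68 and 5.90 CPM (-0.33 ± 0.10, edgeR adjusted p = 0.0221) and has no exon overlap. The groups were well apart, yet the call ended without shATXN7L3 replicate 1 (0.0896) or 2 (0.0585) or shcontrol replicate 2 (0.0753) and with DESeq2 (0.142), with alternatives from 0.0193. ZNF382, a repressor of NF-kB and AP-1 signalling next to it, stood at 3.56 ± 0.667 and 2.84 ± 0.598 CPM (-0.33 ± 0.17, edgeR adjusted p = 0.182). The summed level, 290, 302 and 293 CPM against 296, 295 and 286 CPM, overlapped. ZNF146, which accounts for much of it, lies in this sub-cluster and was slightly above 0. In the 7 members with no exon overlap, which leave out ZNF146, the sums were 33.2, 35.0 and 34.0 CPM in shcontrol and 30.1, 30.8 and 29.4 CPM in shATXN7L3 and did not overlap.

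In ZNF557 to ZNF846 (7069444 to 9793180), ZNF121 was the 1 gene of 12 tested that passed (8.33%, against 24.2% of all tested genes). ZNF121, a partner of MYC (9560353 to 9584533, minus strand), fell from 62.6, 63.2 and 68.2 CPM to 58.0, 51.5 and 56.2 CPM (-0.23 ± 0.054, edgeR adjusted p = 0.00424). This 0.854-fold level is a small change in an abundant member, and the call held in all 14 other analyses (adjusted p from 6.07e-04 to 0.0474). The sub-cluster's summed level went with it, 140, 141 and 143 CPM against 133, 124 and 128 CPM. Without ZNF121 they were 76.9, 77.8 and 74.7 CPM against 74.8, 72.4 and 71.4 CPM, which overlapped narrowly, and the ratio went from 0.908 to 0.953.

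**Figure D3:**
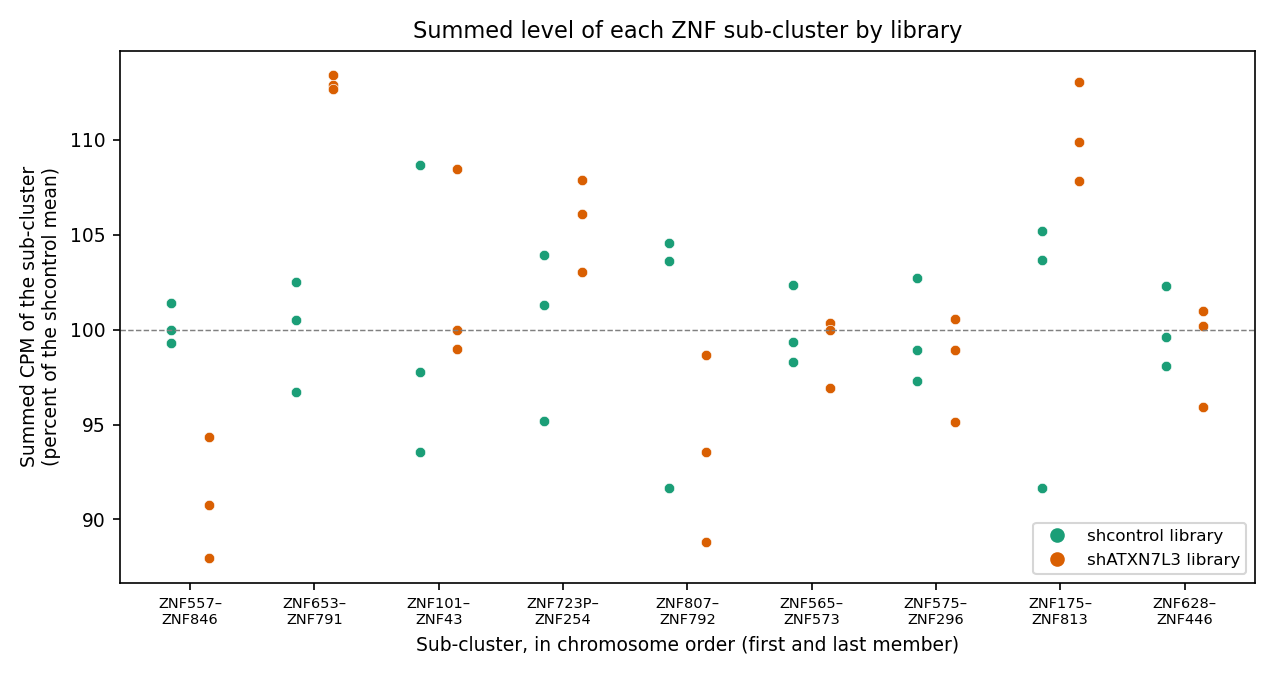
Summed CPM of each of the 9 sub-clusters in every library, as percent of the shcontrol mean (vertical axis), with sub-clusters in chromosome order (horizontal axis) and 1 point per library. The shATXN7L3 points lie above all shcontrol points in ZNF653 to ZNF791 and ZNF175 to ZNF813, and below them in ZNF557 to ZNF846; elsewhere the points overlap.

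In ZNF575 to ZNF296 (43525497 to 45076588), 2 of 23 tested genes rose and 1 fell, with a median of -0.06. ZNF576 went from 15.9, 14.4 and 14.6 CPM to 16.5, 17.1 and 18.5 CPM (0.21 ± 0.072, edgeR adjusted p = 0.035). ZNF283 went from 2.80, 2.85 and 3.60 CPM to 4.60, 3.61 and 4.23 CPM (0.42 ± 0.15, edgeR adjusted p = 0.0416), so that its groups nearly touched. ZNF221 had 22, 23 and 30 reads in shcontrol and 21, 10 and 10 in shATXN7L3 (-0.95 ± 0.30, edgeR adjusted p = 0.0263), a difference that rests on shATXN7L3 replicates 2 and 3, and it reached the read cutoff of the filter in 1 shATXN7L3 library. None of the 3 calls was firm. ZNF576 lost it without shATXN7L3 replicate 2 (0.0718) or 3 (0.177) or shcontrol replicate 2 (0.122) or 3 (0.0815) and with DESeq2 (0.168), from a lowest value of 0.0134. ZNF283 lost it without shATXN7L3 replicate 1 (0.173) or 3 (0.109) or shcontrol replicate 1 (0.112) or 2 (0.136) and with DESeq2 (0.178), from a lowest value of 0.0127. ZNF221 lost it without shATXN7L3 replicate 2 (0.134) or 3 (0.132) or shcontrol replicate 2 (0.0569) or 3 (0.0827) and with DESeq2 (0.135), from a lowest value of 0.00524. ZNF224, a repressor of aldolase A in the same sub-cluster, had -0.12 ± 0.064 from 26.9 CPM (edgeR adjusted p = 0.191).

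The largest sub-cluster, ZNF628 to ZNF446 (55476332 to 58481230), reaches towards the end of the long arm and holds 55 members, 49 of them tested. In it 2 rose and 2 fell (8.16% called, against 24.2% of all tested genes). The median was -0.03, and the summed level was 515, 507 and 529 CPM against 518, 496 and 522 CPM. ZNF587, which with its paralog ZNF417 binds HERVK elements, rose from 47.4, 48.7 and 52.1 CPM to 60.6, 53.1 and 58.3 CPM (0.21 ± 0.057, edgeR adjusted p = 0.00842). On the other strand, ZNF814 shares 2445 of its exon bases, and its call ended without shATXN7L3 replicate 1 (0.0722, the highest of alternatives from 0.00183). ZNF417 stood at 12.1 ± 0.859 and 12.8 ± 1.55 CPM (0.09 ± 0.090, edgeR adjusted p = 0.536).

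ZNF586, some genes before ZNF587 on the same strand, moved the other way. It stood at 12.3, 12.5 and 13.9 CPM in shcontrol and 11.4, 9.54 and 11.7 CPM in shATXN7L3 (-0.24 ± 0.088, edgeR adjusted p = 0.0495), and it shares exon bases with ZNF587B and ZNF552. Its call was at the threshold and ended in 8 of 14 alternatives, among them those without shATXN7L3 replicate 1 (0.0652), 2 (0.257) or 3 (0.0511) and without shcontrol replicate 2 (0.0743) or 3 (0.149), with values from 0.0311. ZNF606 fell from 7.02, 7.04 and 6.81 CPM to 6.11, 5.23 and 5.23 CPM (-0.33 ± 0.10, edgeR adjusted p = 0.0246). That call ended without shATXN7L3 replicate 2 (0.0978) or 3 (0.101) or shcontrol replicate 2 (0.0683), with DESeq2 (0.142) and with library size alone (0.0512), with values from 0.0206. ZNF579 rose from 397, 377 and 378 reads to 424, 493 and 479 reads (0.19 ± 0.068, edgeR adjusted p = 0.0496). Its call ended in 10 of 14 alternatives, among them those without shATXN7L3 replicate 2 (0.185) or 3 (0.160) or shcontrol replicate 2 (0.0954) or 3 (0.128) and with the replicate block (0.0644), with values from 0.0161. ZNF274, which binds the 3′ ends of ZNF genes and recruits SETDB1 there, stood at 32.0, 34.8 and 35.5 CPM and at 33.5, 31.0 and 35.2 CPM. Its difference of -0.04 ± 0.061 (edgeR adjusted p = 0.706) left an interval from -0.16 to 0.08.

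**Figure D4:**
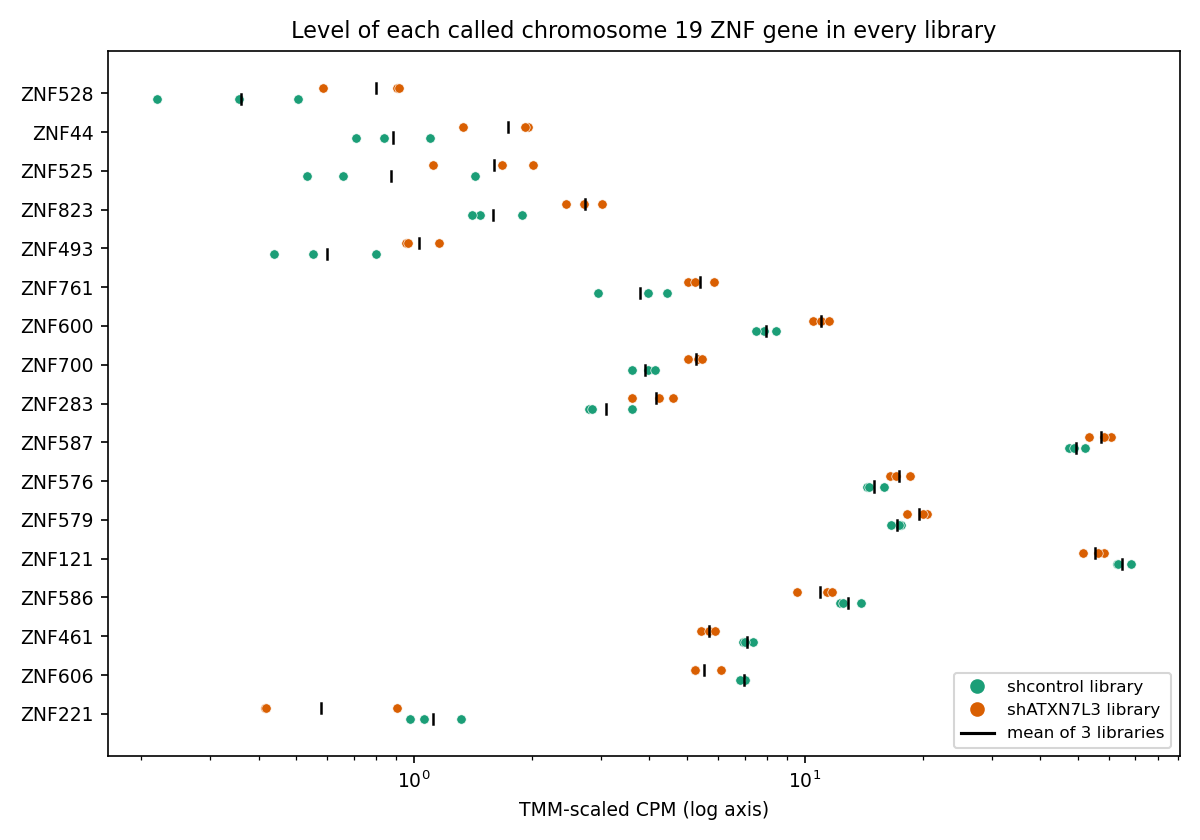
TMM-scaled CPM (log axis, horizontal) of the 17 chromosome 19 ZNF genes with an edgeR adjusted p under 0.05 in each of the 6 libraries, 1 point per library, with a bar at each mean. The groups are separated in all but ZNF525, and 5 of the genes have a control mean under 1.5 CPM.

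In ZNF807 to ZNF792, no gene passed among 4 tested, and ZNF302, the highest in CPM, stood at 22.5, 24.9 and 24.4 CPM against 20.7, 21.5 and 21.8 CPM (-0.16 ± 0.062, edgeR adjusted p = 0.0624). Its groups did not overlap, and it passed without shcontrol replicate 1 and with upper-quartile scaling (lowest value 0.019). Over all tested genes, 24.2% were called and 34.8% had an unadjusted p under 0.05 with edgeR. The 14 scattered members held no call among 11 tested, and 0 of them had such an unadjusted p. One of them, ZNF473, works in the 3′ end processing of histone mRNAs and stood at 18.2, 21.1 and 18.9 CPM against 19, 17.5 and 17.7 CPM (-0.10 ± 0.071, edgeR adjusted p = 0.344).

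The signs of neighbouring members were compared as a description. Of 130 pairs of tested members that follow each other within a sub-cluster, 84 (64.6%) had log2 fold changes of the same sign, and the Pearson correlation across these pairs was 0.19. Leaving out pairs that share exon bases gave 74 of 117 pairs (63.2%) and 0.18. The pairs are not independent, since each gene enters up to 2 of them and paralogs can share reads, so no p is given and no likeness is read from the share; other neighbouring genes were not compared.

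The partners through which KRAB zinc finger proteins act for the most part did not pass the test, as did most genes. Of 27 tested genes for corepressors and heterochromatin proteins, 2 rose, 2 fell and 23 did not pass (14.8% called, median 0.00), against 24.2% called over all tested genes and 39.1% over those with an average log2 CPM of at least 6, near the list's median of 6.51. TRIM28, which binds the KRAB domain, stood at 153, 152 and 148 CPM in shcontrol and 146, 160 and 146 CPM in shATXN7L3 (-0.01 ± 0.046, edgeR adjusted p = 0.946, interval -0.10 to 0.09). SETDB1, the methyltransferase for histone H3 lysine 9, had -0.03 ± 0.047 (edgeR adjusted p = 0.728).

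The 2 that fell were HP1 genes, whose proteins bind methylated lysine 9 of histone H3. CBX3 went from 536, 566 and 540 CPM to 455, 464 and 467 CPM (-0.24 ± 0.042, edgeR adjusted p = 1.99e-04). CBX1 went from 124, 122 and 117 CPM to 108, 111 and 107 CPM (-0.16 ± 0.044, edgeR adjusted p = 0.0125), and lost its call without shATXN7L3 replicate 1 (0.0657) or 3 (0.0784) and with library size alone (0.0544), the alternatives running from 0.00259 to 0.0784. CBX5, the remaining HP1 gene, did not pass (-0.03 ± 0.048). The 2 that rose were remodellers, CHD3 of the NuRD complex (278, 289 and 293 CPM to 333, 337 and 340 CPM, edgeR adjusted p = 3.32e-04) and SMARCAD1, a TRIM28 partner (42.2, 44.6 and 47.9 CPM to 53.3, 51.7 and 54.7 CPM, edgeR adjusted p = 0.00231). For CBX3, CHD3 and SMARCAD1 the call held in all alternatives, with the groups apart. Of 15 zinc finger genes of chromosome 19 with other names, 9 were in the counts, 4 were tested (ZFP14, ZSCAN5A, ZSCAN22 and MZF1) and 0 were called, with 0 at an unadjusted edgeR p under 0.05. Over all tested genes these shares were 24.2% and 34.8%.

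Sequence at the start sites differed between the sub-clusters. RefSeq promoter windows (GRCh38.p14, 250 bases before to 50 after a start) were found for 183 of the 220 members, 220 windows in all. Their median GC content was 60.7% and their median observed over expected CpG ratio 0.768, against 58.7% and 0.579 over all 35116 windows. Each motif was searched as exact letters on both strands: CCGGAAG, the core bound by ETS factors, CCAAT, bound by NF-Y, and ACTACATT. The last was the 8-letter word with the highest ratio of shares among 51 words found in at least 25 member windows, so its share in these same windows is a description of how it was picked. CCGGAAG was in 41.4% of member windows and 10.3% of all windows, CCAAT in 46.8% and 34.6%, ACTACATT in 17.3% and 0.991%, and TATAAA in 3.18% and 11.5%.

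Windows of 6 members that changed are shown, with these letters in capitals where they occur on either strand (CTTCCGG is CCGGAAG read on the other strand). ZNF586 and ZNF587 are shown because they hold all 3 words and changed in opposite directions, ZNF283 and ZNF528 for the ETS core with and without the 8-letter word, and ZNF823 and ZNF700 for CCAAT in the sub-cluster ZNF653 to ZNF791. ZNF44, which also rose there, holds CCAAT in 1 of its 2 windows. ZNF600 had no window.
ZNF586 (chr19:57769426-57769725, plus strand): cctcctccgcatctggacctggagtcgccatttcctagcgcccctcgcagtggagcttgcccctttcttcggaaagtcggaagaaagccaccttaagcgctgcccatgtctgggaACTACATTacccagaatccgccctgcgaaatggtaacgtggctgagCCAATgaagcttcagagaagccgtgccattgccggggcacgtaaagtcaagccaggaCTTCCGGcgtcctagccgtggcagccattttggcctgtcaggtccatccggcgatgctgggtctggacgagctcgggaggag
ZNF587 (chr19:57849609-57849908, plus strand): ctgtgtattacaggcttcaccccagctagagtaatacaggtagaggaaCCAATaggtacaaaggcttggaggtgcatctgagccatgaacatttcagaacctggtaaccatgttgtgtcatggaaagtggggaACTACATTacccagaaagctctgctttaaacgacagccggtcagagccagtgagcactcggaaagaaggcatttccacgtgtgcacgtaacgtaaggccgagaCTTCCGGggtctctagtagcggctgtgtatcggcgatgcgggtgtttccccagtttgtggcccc
ZNF283 (chr19:43827071-43827370, plus strand): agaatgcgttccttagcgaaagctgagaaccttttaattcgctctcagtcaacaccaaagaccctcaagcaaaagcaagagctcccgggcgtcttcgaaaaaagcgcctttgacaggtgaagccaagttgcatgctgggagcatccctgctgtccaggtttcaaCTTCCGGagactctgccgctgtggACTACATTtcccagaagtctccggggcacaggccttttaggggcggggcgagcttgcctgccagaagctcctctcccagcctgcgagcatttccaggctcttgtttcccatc
ZNF528 (chr19:52397599-52397898, plus strand): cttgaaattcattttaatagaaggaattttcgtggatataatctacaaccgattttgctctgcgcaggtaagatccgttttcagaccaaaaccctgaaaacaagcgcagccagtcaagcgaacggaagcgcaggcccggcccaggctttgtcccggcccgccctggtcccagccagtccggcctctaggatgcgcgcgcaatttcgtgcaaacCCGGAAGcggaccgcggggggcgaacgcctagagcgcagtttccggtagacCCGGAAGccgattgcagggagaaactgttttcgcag
ZNF823 (chr19:11738897-11739196, minus strand): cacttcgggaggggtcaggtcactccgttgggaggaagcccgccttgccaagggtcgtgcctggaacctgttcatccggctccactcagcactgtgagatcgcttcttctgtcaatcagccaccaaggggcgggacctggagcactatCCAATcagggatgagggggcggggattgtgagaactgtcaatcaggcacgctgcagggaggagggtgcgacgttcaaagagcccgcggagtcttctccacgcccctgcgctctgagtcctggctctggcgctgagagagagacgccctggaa
ZNF700 (chr19:11924857-11925156, plus strand): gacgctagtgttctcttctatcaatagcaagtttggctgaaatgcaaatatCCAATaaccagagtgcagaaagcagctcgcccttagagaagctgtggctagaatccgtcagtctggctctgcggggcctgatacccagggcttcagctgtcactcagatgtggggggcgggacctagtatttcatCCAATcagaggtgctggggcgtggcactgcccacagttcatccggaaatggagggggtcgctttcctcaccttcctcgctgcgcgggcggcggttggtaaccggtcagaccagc

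The words followed position on the chromosome. ACTACATT was in 18 of 55 windows of ZNF628 to ZNF446 (32.7%), 7 of 24 of ZNF575 to ZNF296 (29.2%), 11 of 40 of ZNF565 to ZNF573 (27.5%) and 1 of 4 of ZNF807 to ZNF792. It was in 0 of the 34 windows of ZNF175 to ZNF813, 0 of 12 of ZNF557 to ZNF846, 0 of 18 of ZNF653 to ZNF791, 0 of 15 of ZNF101 to ZNF43 and 0 of 4 of ZNF723P to ZNF254. CCAAT was in 15 of 18 windows of ZNF653 to ZNF791 (83.3%), 14 of 15 of ZNF101 to ZNF43 (93.3%) and 4 of 4 of ZNF723P to ZNF254. In ZNF565 to ZNF573 and ZNF575 to ZNF296 it was in 8 of 40 and 5 of 24. CCGGAAG ranged from 11.1% of windows in ZNF653 to ZNF791 to 66.7% in ZNF101 to ZNF43 and 4 of 4 in ZNF723P to ZNF254. Windows of duplicated genes share ancestry and are not independent.

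The members' log2 fold changes were also described by word. Tested members with ACTACATT in a window (32) had a median of -0.03 with 2 higher and 1 lower, and those without (117) a median of 0.02 with 9 higher and 3 lower. With CCAAT the median was 0.05 (78 members, 5 higher, 1 lower) and without it -0.02 (71 members, 6 higher, 3 lower). With CCGGAAG it was 0.07 (69 members, 6 higher, 3 lower) and without it -0.01 (80 members, 5 higher, 1 lower). The differences between these medians were not tested, and sub-cluster and word cannot be told apart in them.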

How the data were processed

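RNA of 6 HCCLM3 libraries was sequenced after poly-A selection, per the labels' protocols. The authors deposited unnormalized read counts by gene symbol, made with Trimmomatic 0.36, STAR 2.5.3a and featureCounts of Subread 1.5.1 on GRCh38, per the submitters' processing notes, which also name edgeR 3.12.1. For strand setting, multi-mapping and shared exon bases, the treatment was not given in the sources used here. Exonic lengths came with the deposited table.

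Genes passed filterByExpr (minimum count 10, minimum total 15). Counts were TMM-scaled and groups compared with edgeR 4.0.16 (glmQLFit, glmQLFTest; R 4.3.3), adjusted over all tested genes; SE is the log2 fold change over the root of F. The procedure was also run on counts simulated from its own fitted dispersions. That run cannot show how it performs where real libraries depart from that model. The alternatives were other scalings, filters, DESeq2 1.42.0, limma 3.58.1 voom, a replicate block and leaving out each library. Named genes are members of known role. With them came the 8 highest and 8 lowest changes past the threshold at an average log2 CPM of at least 1. The smallest p per sub-cluster and direction, the 6 highest RPKM, the called corepressors with TRIM28 and SETDB1, and ATXN7L3 were added. ZNF44, ZNF525, ZNF528, CBX5, ATRX, LUM, PECAM1 and KDR were named after their values were seen. Members and lists were chosen with earlier results of these data known. The word ACTACATT was chosen after seeing the windows.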

Additional observations from a re-analysis of the deposited data

How the results depend on the processing

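Over all genes, DESeq2 called 1344 genes higher instead of 2182. Among the members, the 12 higher and 5 lower calls became 4 and 1 with DESeq2, 5 and 1 with a minimum of 1.5-fold, and 5 and 3 without members that share exon bases with another gene, which leaves fewer members; library size alone gave 14 and 3. Leaving out 1 library gave 6 to 13 higher and 1 to 7 lower. The members' median of 0.02 became 0.062 with library size alone, which moved the median of all genes too, and -0.012 without overlapping members. The cause of the other shifts was not tested. ATXN7L3 kept its call in all 14 alternatives. Over the named genes, 471 values stayed on their side of the threshold, 68 lost a call and 2 gained one, and 0 reversed.

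With the replicate number as a block, 11 members were higher and 5 lower, and over all genes 2188 and 2140. Same-numbered libraries did not deviate together (correlations -0.016, 0.00514 and 0.0442), so the numbers were not taken as pairs. Depth limits the members: 48 were not tested, and 16 of the tested lay under an average log2 CPM of 0.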
